A study of Mus musculus with 6 samples.

Results

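Interferon-stimulated genes were examined in RNA of cells sorted as pericytes from mouse calf muscle 3 hours after electrical stimulation. They are 33 genes named by symbol: 8 of the type I response (the Ifit, Oas and Mx genes and Isg15), 5 that lean to type II (Irf1, Gbp2, Gbp3, Iigp1 and Cxcl9), and 20 that respond to both or are shared machinery. All 33 were found, 1 row each, among the 53715 genes of the deposited table, and all 33 were among the 26559 genes with enough counts to be tested. The animals were male wild-type C57BL/6J mice, 14 weeks old. In 3 of them the lower leg muscles were made to contract 40 times in about 10 minutes, 20 times while lengthening (eccentric) and 20 while shortening (concentric), and 3 sham mice were left unstimulated. Cells positive for CD146 and negative for CD45 and CD31 were then sorted from the gastrocnemius-soleus muscles, and the labels name no allele or drug that differs between the groups. Each group had 3 mice and 3 libraries, and the labels name no pooling.

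Interferons are cytokines released on infection or tissue damage. Type I interferons (alpha and beta) act through the receptor chains Ifnar1 and Ifnar2, which lead to a complex holding Stat2 and Irf9 that binds the interferon-stimulated response element in promoters. The type II interferon, gamma, acts through Ifngr1 and Ifngr2 on promoters with the gamma-activated site, and it induces Irf1 and guanylate-binding proteins strongly. Many cells, those of the vessel wall among them, express these genes at a low level without infection.

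The libraries held 17520338 to 23709220 estimated counts each. RNA of cells other than pericytes was present in all of them. The endothelial marker list averaged 6.38 to 8.38 log2 CPM (counts scaled to equal library size), although the gate excluded the endothelial antigen CD31. The pericyte list averaged 2.54 to 4.46. Pecam1, the gene of CD31, stood at 384, 429 and 577 CPM after stimulation and 524, 1280 and 751 in sham. Mcam, the gene of CD146 by which the cells were sorted, stood at 24.3, 30.8 and 54.1 and 39.1, 105 and 64 CPM. Levels in CPM are not per length, so they do not rank different genes or lists against each other. Pdgfrb, a pericyte receptor, was present at 12.5, 23.2 and 43.7 and 24.8, 59.8 and 37.2 CPM. T and NK cell markers averaged 2.70 to 4.74 and B cell markers 4.92 to 8.51 log2 CPM. Sham replicate 2 stood apart, with the highest endothelial and the lowest T, NK and B cell levels of the 6 libraries. In such bulk samples, fewer cells of a type and less RNA per cell cannot be told apart.

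Promoter sequences are shown first, because they hold the elements through which these genes are known to respond. Promoters of 26 of the 33 genes were matched in the RefSeq table (GRCm38.p6), which holds 250 bases before and 50 after each start, in 30 windows. Mx1, Mx2, Iigp1, Dhx58, Zbp1, Usp18 and Parp14 had no entry. The core letters of the response element, GAAANNGAA, were searched on both strands, as were those of the gamma-activated site, TTCNNNGAA, which reads the same on both. Matches of one motif may overlap each other or the other motif. The response element core was found in 16 of the 26 genes, and in 16 of the 30 windows (53.3%), against 8.56% of 32851 windows of all genes. The gamma-activated core was found in 7 of the 26 genes and 7 of the 30 windows (23.3%), against 8.3% of all windows. A match describes letters only and is not a shown binding site.

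The stretches below run 5′ to 3′ along the gene, 100 bases each, all before the RefSeq transcription start, with the matched letters in capitals. Isg15, Ifit1 and Ifit3 are shown because they hold 3 response element matches each, Rsad2 and Gbp2 as single matches, Ifih1 for the upstream one of its 2 matches, Cxcl9 as a gamma-induced gene with a response element match, and Irf1 as a gene with only the gamma-activated core.
Isg15 (chr4:156200837-156200936, minus strand): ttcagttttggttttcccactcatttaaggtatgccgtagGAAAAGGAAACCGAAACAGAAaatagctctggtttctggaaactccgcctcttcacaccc
Ifit1 (chr19:34640747-34640846, plus strand): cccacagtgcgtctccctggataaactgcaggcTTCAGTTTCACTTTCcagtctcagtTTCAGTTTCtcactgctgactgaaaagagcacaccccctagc
Ifit3 (chr19:34583355-34583454, plus strand): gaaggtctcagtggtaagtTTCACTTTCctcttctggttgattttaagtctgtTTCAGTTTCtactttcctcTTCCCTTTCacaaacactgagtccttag
Rsad2 (chr12:26456518-26456617, minus strand): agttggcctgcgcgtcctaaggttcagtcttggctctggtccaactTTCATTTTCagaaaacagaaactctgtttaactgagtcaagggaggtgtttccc
Ifih1 (chr2:62646314-62646413, minus strand): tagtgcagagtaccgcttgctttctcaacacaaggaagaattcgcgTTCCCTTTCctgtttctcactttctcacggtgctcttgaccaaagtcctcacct
Gbp2 (chr3:142620559-142620658, plus strand): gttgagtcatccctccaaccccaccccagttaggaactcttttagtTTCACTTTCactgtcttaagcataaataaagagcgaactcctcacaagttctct
Cxcl9 (chr5:92328201-92328300, minus strand): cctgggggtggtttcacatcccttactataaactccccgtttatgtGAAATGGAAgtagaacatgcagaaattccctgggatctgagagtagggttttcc
Irf1 (chr11:53769878-53769977, plus strand): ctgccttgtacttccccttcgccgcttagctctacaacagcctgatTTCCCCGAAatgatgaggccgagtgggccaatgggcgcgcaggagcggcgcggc
In Isg15 the 3 matches overlap in a single run of letters, beginning 78, 72 and 66 bases before the start. In Ifit1 and Ifit3 all 3 lie on the other strand, where 2 of those in Ifit1 overlap and those in Ifit3 are apart. Among the type I genes 4 of 6 with a promoter entry held the response element core, and among the type II leaning genes 3 of 4. None of the 3 antigen-processing genes held it in these windows. The median log2 fold change, stimulated over sham, was -0.65 over the 16 genes with the response element core and -0.28 over the 10 without. For the gamma-activated core the order was the other way, at -0.33 over the 7 genes with it and -0.50 over the 19 without. Both are descriptions that were not tested.

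**Figure D1:**
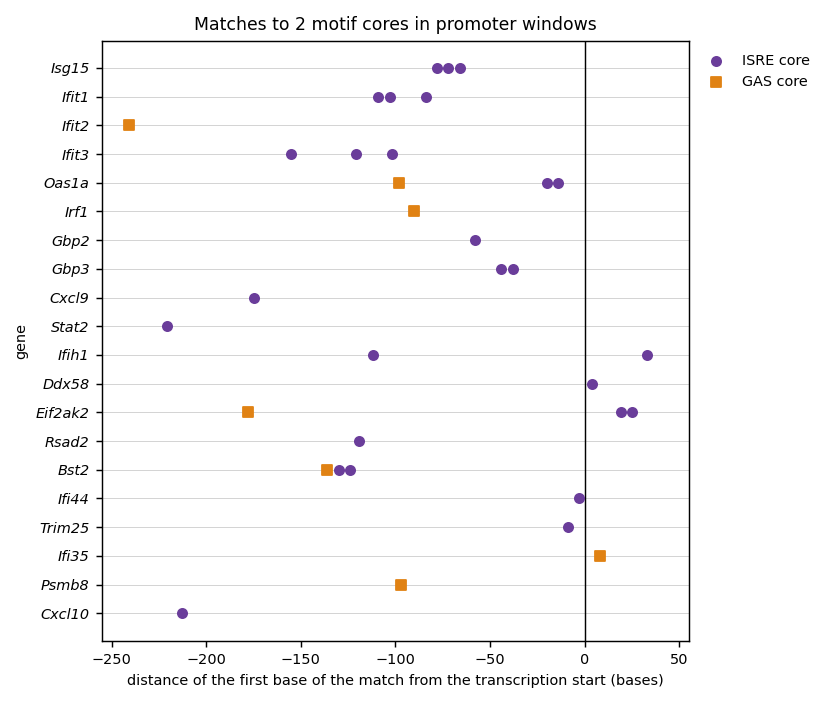
Positions of matches to the response element core (circles) and the gamma-activated core (squares) in the promoter windows of the 20 genes with at least 1 match. The x axis is the distance in bases of the first base of the match from the transcription start. Most matches lie before the start, and Isg15, Ifit1 and Ifit3 hold 3 circles each.

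The comparison asks whether interferon-stimulated genes differ in the sorted cells 3 hours after stimulation. In the means, most of them were lower in the stimulated libraries: 29 of 33 had a log2 fold change below 0, with a median of -0.44, where 52.0% of all 26559 tested genes were below 0 and their median was -0.02. The quasi-likelihood test of edgeR called 0 of the 33 at a Benjamini-Hochberg adjusted p of 0.05, where it called 0 genes of all (0%), and the smallest adjusted p among the 33 was 0.424. At an unadjusted p under 0.05 there were 7 lower genes of 33 (Xaf1, Ifi44, Ifih1, Ifit3, Ifit2, Usp18 and Gbp3) against 4.41% of all genes, and 1 higher (Zbp1) against 2.64%. Limma voom also called 0, and DESeq2 called Xaf1 alone (adjusted p = 0.0228, with a range of 0.0228 to 1 over the alternatives). All 3 stimulated libraries lay below all 3 sham libraries in 6 genes, against 5.89% of all tested genes, and above them in 1, against 6.12%. Without sham replicate 2, the library with the highest endothelial markers, the median of the 33 was -0.18 and 26 of 33 were below 0. In that fit 3 had an unadjusted p under 0.05, 2 lower and 1 higher. Of all genes tested in it, 49.1% were below 0, with a median of 0.01. At that p 2.01% of them were lower and 1.97% higher.

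**Figure D2:**
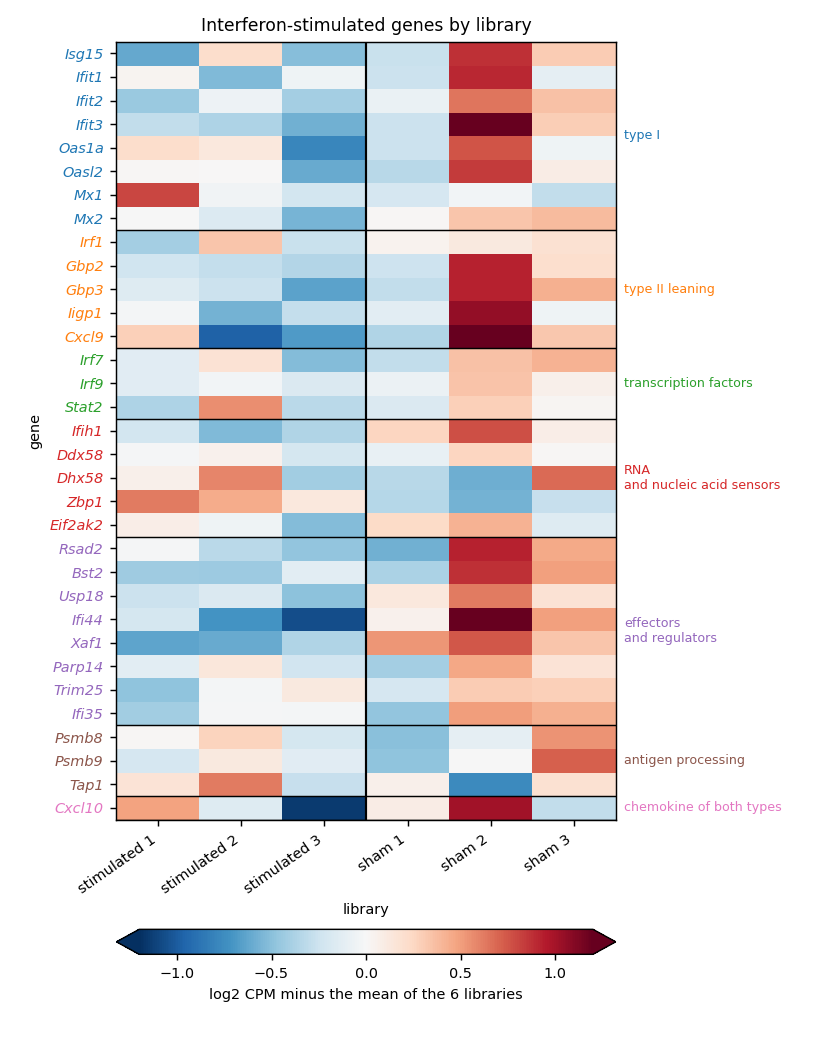
Level of each of the 33 genes in each of the 6 libraries, as log2 CPM minus the gene's mean over the libraries (colour), with genes grouped by role. The column of sham replicate 2 is the reddest in most groups, while Dhx58, Zbp1 and Tap1 are lowest there.

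Sham replicate 2 had the highest level of 23 of the 33 genes, where it had the highest level of 25.8% of all tested genes. Stimulated replicate 3 had the lowest level of 13 of the 33, where it was lowest in 10.1% of all tested genes. Sham replicate 1, at a mean of 4.47 log2 CPM over the 33 genes, lay between the stimulated libraries, at 4.54, 4.55 and 4.25, while sham replicates 2 and 3 were at 5.15 and 4.84. The groups therefore overlapped in the mean of the list.

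Among the type I genes, 7 of 8 were lower in the mean, with a median log2 fold change of -0.46, and 0 passed the test. The tetratricopeptide proteins of the Ifit family, which bind viral RNA, sit in a cluster on chromosome 19. Ifit3 (ENSMUSG00000074896.3, chromosome 19, 34583531 to 34588731, GRCm38) stood at 11.9, 11.3 and 9.77 CPM in stimulated replicates 1 to 3 and at 12.2, 33.5 and 17.9 CPM in sham replicates 1 to 3, -0.95 (SE 0.37) on the log2 scale, with unadjusted p = 0.031 in the edgeR fit. The groups did not overlap, but the gap between them was small (11.9 against 12.2 CPM) and sham replicate 2 lay far above the other 5 libraries. Ifit2 stood at 19.1, 24.8 and 19.5 CPM after stimulation and at 24.6, 40.6 and 33.1 in sham, with -0.63 (SE 0.27). Ifit1, at 11.9, 8.03 and 11.2 against 9.73, 21.7 and 10.8 CPM, had -0.44 (SE 0.36). In Ifit1 the sham excess was that of replicate 2 alone, and without this library the log2 fold change was 0.02. Ifit3 has a near-identical neighbour, Ifit3b, and reads that fit both can be split between them. Ifit3b itself stood at 2.95, 5.17 and 1.94 CPM after stimulation and 7.55, 12.2 and 6.41 in sham.

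Isg15, the ubiquitin-like protein that is attached to other proteins in the response (chromosome 4, 156199424 to 156200818), stood at 3.63, 6.41 and 3.89 CPM after stimulation and at 4.62, 10.2 and 6.88 CPM in sham, with -0.64 (SE 0.39) on the log2 scale. Stimulated replicate 2 lay above sham replicate 1, so the groups overlapped. The oligoadenylate synthetase genes make or resemble the makers of the signal that activates RNase L. Oas1a was at 5.74, 5.42 and 2.87 against 4.13, 8.34 and 4.78 CPM, and Oasl2 at 21.3, 21.1 and 13.9 against 16.7, 37.6 and 22.4 CPM. Their log2 fold changes, -0.30 (SE 0.40) and -0.44 (SE 0.34), were near their errors in size, and without sham replicate 2 they were 0.07 and -0.05.

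The Mx genes encode dynamin-like antiviral GTPases, and C57BL/6 mice are known to carry defective alleles of both. Mx2 stood at 9.17, 8.23 and 6.28 CPM after stimulation and 9.33, 11.6 and 12 CPM in sham, with -0.47 (SE 0.28) and groups that did not overlap, although by only 9.17 against 9.33 CPM. Mx1 was the one type I gene above 0, at 19.9, 11.1 and 9.81 against 9.95, 11.2 and 9.35 CPM, a log2 fold change of 0.42 (SE 0.32). Its excess was that of stimulated replicate 1, the other 2 stimulated libraries lying within the sham range.

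All 5 type II leaning genes were lower in the mean, with a median log2 fold change of -0.67, and 0 passed the test. Guanylate-binding proteins attack the vacuoles and membranes of intracellular microbes. Gbp3 (chromosome 3, 142560026 to 142573209) stood at 44.5, 41.4 and 31.6 CPM after stimulation and at 40.2, 93.4 and 66.5 CPM in sham, or -0.77 (SE 0.33) on the log2 scale. Gbp2 (chromosome 3, 142620602 to 142638008) stood at 40, 38.6 and 36.9 against 39.6, 89.2 and 54.1 CPM, with -0.66 (SE 0.31). In both genes the stimulated libraries were close together and sham replicate 1 lay among or beside them, with sham replicate 2 highest.

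Iigp1, an immunity-related GTPase, stood at 51, 35.1 and 42.7 CPM after stimulation and 47.7, 108 and 50 CPM in sham, with -0.67 (SE 0.35). Cxcl9, a chemokine that draws activated T cells, stood at 11.1, 4.63 and 5.66 against 7.06, 24 and 11.4 CPM, with -0.99 (SE 0.50). Again sham replicate 2 lay far above the next library, and without it the log2 fold changes were -0.18 and -0.38. Irf1, the transcription factor that passes on the gamma signal and whose promoter stretch above holds the gamma-activated core, was the exception in size: it stood at 105, 176 and 116 CPM against 144, 151 and 158 CPM, with -0.19 (SE 0.27). The 3 sham libraries were close to each other for Irf1, and stimulated replicate 2 was the highest of all 6.

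The type I and type II leaning genes followed the same order of libraries within the sham group. Type I genes averaged 3.31, 4.20 and 3.63 log2 CPM in sham replicates 1 to 3, and type II leaning genes 5.25, 6.32 and 5.66. After stimulation the averages were 3.48, 3.41 and 3.06 for type I genes, and 5.34 and 5.10 in replicates 1 and 2 for type II leaning genes, with replicate 3 lowest. Without sham replicate 2 the medians of the log2 fold changes were -0.18 for type I and -0.28 for type II leaning genes, and without sham replicate 1 they were -0.66 and -0.90. No difference between the 2 classes was tested.

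**Figure D3:**
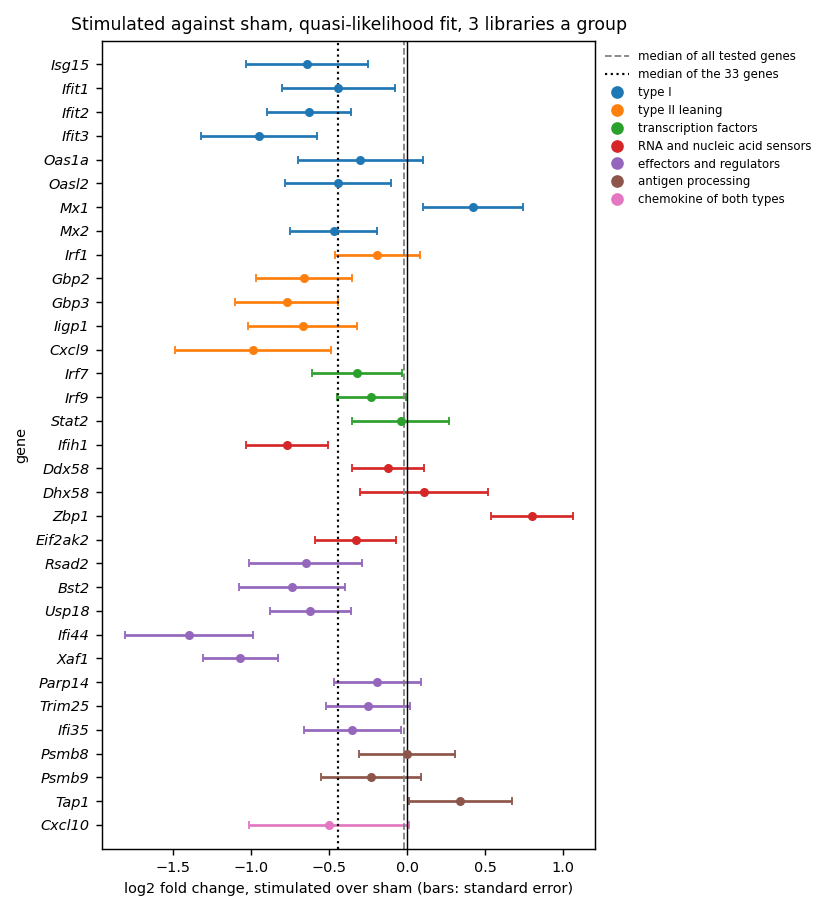
Log2 fold change of stimulated over sham for each of the 33 genes (points) with its standard error (bars), coloured by role. The dotted line is the median of the 33 genes (-0.44) and the dashed line that of all tested genes (-0.02). Zbp1 is the highest point at 0.80, and Ifi44 and Xaf1 are the lowest at -1.40 and -1.07.

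The 3 transcription factors that carry or amplify the type I signal were lower in the mean, with a median log2 fold change of -0.23, and 0 passed the test. Irf7, the factor that amplifies interferon production, stood at 24.2, 30 and 18.6 CPM after stimulation and 21.7, 34 and 35.5 CPM in sham, with a log2 fold change of -0.32 (SE 0.29). Irf9, the DNA-binding subunit of the type I complex, had -0.23 (SE 0.22). Stat2, its partner, stood at 48.1, 91.4 and 49.4 against 54.9, 75.4 and 63.2 CPM, with -0.04 (SE 0.31). For Stat2 a single library, stimulated replicate 2, was the highest of the 6, and the sign turned when a single other library was left out: it was 0.17 when stimulated replicate 1 was dropped, 0.12 when stimulated replicate 3 was, and 0.10 when sham replicate 2 was.

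Of the 5 sensors of foreign nucleic acid, 3 were lower and 2 higher in the mean, and 0 passed the test. Ifih1 (ENSMUSG00000026896.14, chromosome 2, 62595798 to 62646255), which encodes the long double-stranded RNA sensor MDA5, stood at 24.8, 20 and 22.5 CPM after stimulation and at 34.6, 49.3 and 30.5 CPM in sham, -0.77 (SE 0.26) on the log2 scale, with unadjusted p = 0.0164 and adjusted p = 0.617 in edgeR. The groups did not overlap, and without sham replicate 2 the log2 fold change was -0.53. Ddx58, the gene of the related sensor RIG-I, stood at 62.1, 64.9 and 54.1 against 58.8, 75.1 and 63.3 CPM, with -0.12 (SE 0.23). Dhx58, their regulator, had 0.11 (SE 0.41), and Eif2ak2, the RNA-activated kinase that halts translation, had -0.33 (SE 0.26).

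Zbp1 (ENSMUSG00000027514.14, chromosome 2, 173206612 to 173218923), a sensor of Z-form nucleic acid that can start necroptosis, was the one gene of the 33 with a higher level and an unadjusted p under 0.05. It stood at 19, 16.8 and 13.5 CPM after stimulation and at 9.73, 8.34 and 10.2 CPM in sham, with means of 16.4 ± 2.76 and 9.44 ± 0.983 CPM (SD, n = 3). The log2 fold change was 0.80 (SE 0.26), unadjusted p = 0.0131 and adjusted p = 0.592 in edgeR. All 3 stimulated libraries lay above all 3 sham libraries in CPM, and over the 14 alternatives the log2 fold change ranged from 0.72 to 0.92. Of all tested genes, 6.12% had such a separation upward and 2.64% were higher at an unadjusted p under 0.05. Several marker lists were also higher in the mean after stimulation. T and NK cell markers were at 4.39 to 4.74 log2 CPM after stimulation and 2.70 to 4.27 in sham, although Ncr1 (-0.52) and Gzma (-0.64) were lower. Neutrophil markers were at 3.13 to 4.07 and 0.69 to 2.41 log2 CPM. The B cell, plasmacytoid dendritic cell and myofibre lists were higher in the mean as well. The part of these cell types in the Zbp1 difference was not tested.

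The 8 effectors and regulators were all lower in the mean, with a median log2 fold change of -0.64. Their mean level stood at 4.55, 4.60 and 4.54 log2 CPM after stimulation and 4.70, 5.60 and 5.22 in sham. The groups did not overlap in this mean, but the gap was small (4.60 against 4.70). Of the 8 genes, 3 had all stimulated libraries below all sham libraries, against 5.89% of all tested genes. Xaf1 (ENSMUSG00000040483.15, chromosome 11, 72301629 to 72313733), a promoter of apoptosis that binds the inhibitor XIAP, had the smallest p of the 33 genes. It stood at 11.4, 11.6 and 13.7 CPM after stimulation and at 25.4, 29.6 and 22.2 CPM in sham, with means of 12.2 ± 1.31 and 25.7 ± 3.72 CPM (SD, n = 3). The groups lay well apart, and neither had a library far from the others. The log2 fold change was -1.07 (SE 0.24), unadjusted p = 0.00167 and adjusted p = 0.424 in edgeR. Without sham replicate 2 it was -0.95, and from plain sums of the reads of its transcripts, not scaled to length, -0.68.

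Ifi44 (chromosome 3, 151730922 to 151749960), an interferon-induced protein of the cytoplasm, had the lowest log2 fold change of the 33, -1.40 (SE 0.41). It stood at 6.95, 4.88 and 3.85 CPM after stimulation and at 8.35, 21.9 and 11.3 CPM in sham, with an unadjusted p = 0.00792 and adjusted p = 0.552 in edgeR. The groups did not overlap, sham replicate 2 was the highest, and the log2 fold change was -0.91 without it. Usp18, the protease that removes Isg15 from proteins and restrains the type I receptor, stood at 10.4, 11 and 8.8 against 13.5, 19.1 and 14 CPM, with -0.62 (SE 0.26), and its groups did not overlap.

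Rsad2 (viperin, an enzyme that makes a chain-terminating nucleotide) stood at 54.4, 44 and 39.6 CPM after stimulation and 36.9, 104 and 75.1 CPM in sham, with -0.65 (SE 0.36). Sham replicate 1 was the lowest of the 6 libraries and sham replicate 2 the highest, so the groups overlapped fully. Bst2 (tetherin, which holds budding virus at the membrane) stood at 9.11, 9.02 and 11.2 against 9.37, 22.5 and 17.2 CPM, with -0.74 (SE 0.34). Trim25, the ubiquitin ligase that acts on RIG-I, stood at 105, 144 and 159 against 127, 181 and 179 CPM, with -0.25 (SE 0.27). The remaining 2, Parp14 and Ifi35, had log2 fold changes of -0.19 and -0.35, within about 1 SE of 0.

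Of the 3 genes of antigen processing, 2 were below 0 and 1 above, with 0 past the test. Tap1, a subunit of the peptide transporter (chromosome 17, 34187553 to 34197225), stood at 99.3, 137 and 73.5 CPM after stimulation and 92.7, 52.2 and 101 CPM in sham, with 0.34 (SE 0.33), and sham replicate 2 was the lowest library. Psmb8 and Psmb9, catalytic subunits of the immunoproteasome, stood at -0.00 (SE 0.31) for Psmb8 and -0.23 (SE 0.32) for Psmb9 on the log2 scale. Sham replicate 3 was the highest library for both Psmb genes, at 105 and 41.1 CPM, and the lowest was sham replicate 1, at 51.1 and 17.9. Tap1 and Psmb9 overlap by 212 bases on opposite strands. Of the 33 genes, 13 overlap another annotated gene, 11 of them on the other strand, and whether the counting used strand is not given in the sources used here. Cxcl10, a chemokine induced by both types of interferon, was the lowest in counts among the 33, at 3.69, 2.37 and 1.19 against 2.8, 5.31 and 2.15 CPM, with -0.50 (SE 0.51).

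Marker lists of the sorted and of other cell types also differed between the groups in the mean. Of 13 pericyte markers 12 were lower after stimulation (median log2 fold change -0.93), and their summed level was 191 to 439 CPM against 350 to 729 in sham. All 8 smooth muscle markers were lower (median -1.04), at 96.1 to 230 CPM against 165 to 449, as were all 8 of fibro-adipogenic progenitors (median -0.33), at 399 to 1030 against 721 to 1140. All 15 endothelial markers were lower in the mean after stimulation (median log2 fold change -1.08), their summed level ranging from 1900 to 2740 CPM against 3240 to 8070 in sham, with none at 0 in any library. Among sham replicates 1 to 3 the endothelial mean was 7.02, 8.38 and 7.66 log2 CPM, the same order as for the type I, type II leaning and effector genes. The pericyte (3.48, 4.46 and 3.59), smooth muscle (3.17, 4.72 and 3.83), macrophage and monocyte (4.12, 5.79 and 5.13), fibro-adipogenic (5.78, 6.35 and 5.98) and myofibre (1.61, 2.31 and 2.20) lists had this order too, so it is not particular to endothelial markers. Among stimulated replicates 1 to 3 the endothelial mean was 6.38, 6.57 and 6.94, the reverse of the type I and type II leaning order. The summed macrophage and monocyte markers ranged from 518 to 802 CPM after stimulation and 339 to 1150 in sham, with 8 of 12 lower. Neutrophil markers summed to 130 to 222 CPM against 38 to 63.4, with 10 of 10 tested higher, Camp at 0 in sham replicate 2, and Ly6g and Elane too low to be tested. T and NK cell markers, 9 of 11 higher, summed to 477 to 537 CPM against 81.1 to 373. All 7 B cell markers were higher in the mean (median 0.42), at 1770 to 2570 CPM against 262 to 3000, and all 8 myofibre markers (median 1.11), at 46.4 to 160 against 27.9 to 45.9. Plasmacytoid dendritic cell markers, the marker list of the main interferon-producing leukocyte, were higher in 4 of 4 tested (Cox6a2 was too low) and summed to 41.8 to 65.4 CPM against 18.7 to 41.6. The part of any of these cell types in the differences of the 33 genes was not tested.

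**Figure D4:**
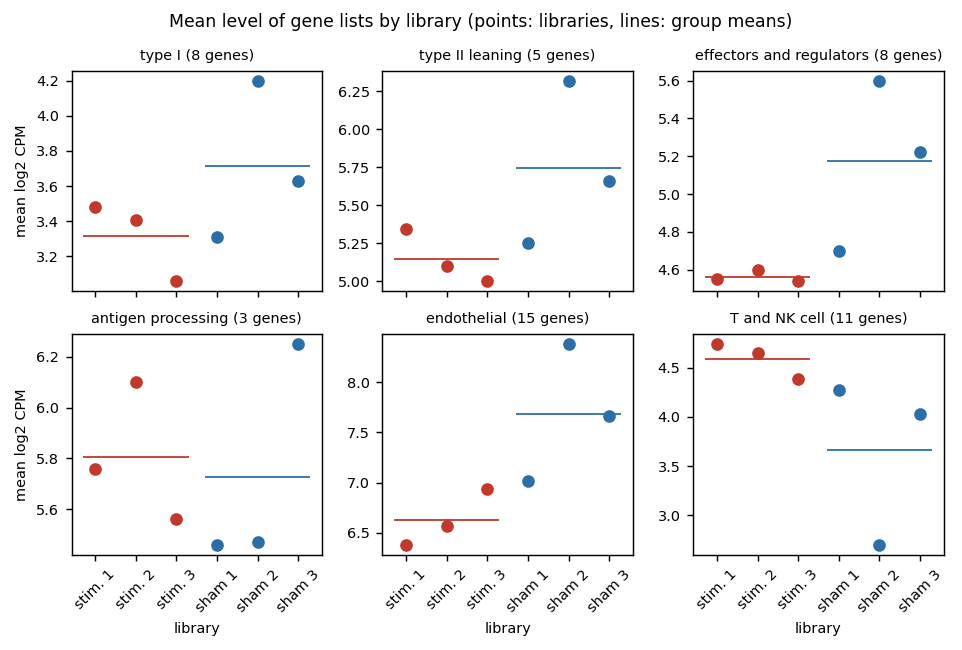
Mean log2 CPM of 6 gene lists in each library (points, stimulated in red and sham in blue) with the group means (lines). The y axes differ between panels and do not start at 0. Type I, type II leaning, effector and endothelial lists are all highest in sham replicate 2, where the T and NK cell list is lowest.

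Upstream of these genes, the interferons themselves were scarce. Of 21 interferon genes listed, 4 had enough counts to be tested: Ifng, Ifna16, Ifnk and Ifnz. Ifnb1 reached at most 5.12 estimated counts in any library. Ifng, the type II interferon, stood at 12, 4.24 and 4.86 CPM after stimulation and at 6.71, 5.09 and 6.83 CPM in sham, with a log2 fold change of 0.18 (SE 0.43). One library, stimulated replicate 1, was the highest, and without it the log2 fold change was -0.41; it was -0.27 from summed transcript reads. The other 3 tested interferons stayed at or below 1.87 CPM in every library, with log2 fold changes of 0.81 (Ifna16), 0.49 (Ifnk) and 1.40 (Ifnz), and the near-identical alpha genes can share reads.

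Of the 6 receptor chains, 5 were lower in the mean and 0 passed the test. Ifnar1 stood at 78.9, 85 and 84.7 CPM after stimulation and 83.7, 110 and 112 CPM in sham, with -0.30 (SE 0.23), and Ifnar2 at 40.9, 39.6 and 42 against 37.3, 68 and 51.8 CPM, with -0.36 (SE 0.27). The gamma receptor chain Ifngr1 was at 130, 136 and 128 against 147, 130 and 136 CPM, with -0.07 (SE 0.22), and Ifngr2 had 0.43 (SE 0.29). The lambda receptor chains Ifnlr1 and Il10rb had -0.28 and -0.27. All 10 genes of the list of JAK kinases, STAT and other IRF factors were above 0, with a median log2 fold change of 0.27 and 0 at an unadjusted p under 0.05.

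Sensing genes upstream of interferon were higher in 6 of 10. Ikbke, a kinase that phosphorylates the interferon-inducing factors, stood at 32, 59.1 and 39.8 CPM after stimulation and 24.3, 11.4 and 18.8 CPM in sham, with 1.27 (SE 0.35) and an unadjusted p = 0.00532. Tlr3, the endosomal receptor for double-stranded RNA, stood at 6.53, 7.59 and 9.02 against 9.55, 21.7 and 13.7 CPM, with -0.95 (SE 0.34) and an unadjusted p = 0.0217 in the same edgeR fit. Both had groups that did not overlap, in opposite directions. Among 9 feedback genes 7 were above 0, with Nlrc3, a restraint on nucleic acid sensing, at 0.85 (SE 0.36).

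Of 38 further type I response genes 23 were lower, 7 of them at an unadjusted p under 0.05 (against 4.41% of all tested genes), and 15 higher, 3 of them so (against 2.64%). Phf11d had -1.26 (SE 0.37) and Ifit3b -1.38 (SE 0.43), while Ifi205, of the family of DNA-binding Ifi200 proteins, stood at 44.1, 37 and 54.7 CPM after stimulation and 17.2, 20.7 and 22.7 CPM in sham, with 1.16 (SE 0.25). Slfn8 had 0.97 (SE 0.27). The median log2 fold change of that list was -0.12. Of 22 further type II response genes 15 were lower, with a median of -0.15. Gbp8 had 1.07 (SE 0.31), Gbp9 -0.77 (SE 0.34), and Nlrc5, the activator of class I antigen presentation genes, stood at 280, 240 and 174 against 138, 124 and 134 CPM, with 0.81 (SE 0.26). Gbp8 and Gbp9 had opposite signs within a family of closely related sequences whose reads may be split between members. Over all 7 pathway lists the edgeR test called 0 of 99 tested genes, with 9 lower and 7 higher at an unadjusted p under 0.05, where all tested genes gave 4.41% and 2.64%. Of the 99, limma voom called 0 and DESeq2 called 1, Ifi205 (adjusted p = 0.0119 on a log2 fold change of 1.18, where edgeR gave 0.424 and the alternatives ranged from 0.0119 to 1).

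Levels of different genes can be compared only per length, as TPM (transcript abundance scaled for length and library). By the median TPM of the 6 libraries, Irf1 was the most abundant of the 33, at 5.3 TPM, followed by Tap1 (3.15), Psmb8 (2.56), Stat2 (2.39) and Ddx58 (2.24). Oas1a (0.142 TPM), Cxcl10 (0.15) and Mx1 (0.193) were the least abundant. Irf1 was above 93.9% of all tested genes and Oas1a above 43.5%, the median tested gene standing at 0.199 TPM. For Irf1 the 6 libraries spanned 4.14 to 9.14 TPM and for Tap1 2.42 to 4.36, but within each library Irf1 was the highest of the 33. The ranges of Tap1, Psmb8 (2.08 to 3.66), Stat2 (1.81 to 4.52) and Ddx58 (1.91 to 4.48) overlapped, and their order changed between libraries. In stimulated replicate 1 Tap1 stood at 3.48 and Stat2 at 1.87 TPM, and in sham replicate 2 at 2.81 and 4.52. The highest of the type I genes, Oasl2, had a median of 0.617 TPM.

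In several of the 33 genes, transcript models not annotated as protein-coding took most of the summed TPM. These are shares of TPM, which is scaled for length, and not shares of reads. For Irf7, such models took 87.6, 86 and 88.1% of the gene's TPM in stimulated replicates 1 to 3 and 81, 78.2 and 91% in sham replicates 1 to 3. For Stat2 they took 82.3, 88.9 and 81.8% against 86.6, 86.3 and 82.6%, and for Ddx58 79.6, 73.5 and 79.1% against 78.2, 78 and 77.5%. The shares overlapped between the groups in all 3 genes. By estimated reads, a protein-coding model of Stat2 held the most of any Stat2 model in each library. It held 761.9, 939.2 and 918.8 reads after stimulation and 779.3, 868.4 and 933 in sham. For Ifit1, Ifit3, Isg15, Oas1a and Gbp2 they took 0%, the first 4 having a single transcript model each.

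The models of Xaf1 differed in their reads. A retained-intron model held 139.1, 152.3 and 177.4 estimated reads after stimulation and 208.5, 224.4 and 178 in sham, the most of any Xaf1 model. A model marked for nonsense-mediated decay held 21.1, 31.1 and 43.5 reads against 104.9, 80.6 and 84.3, and took 35.1, 43.3 and 48.2% of the TPM against 66, 51.4 and 66.7%. The groups did not overlap in either the reads or the TPM share of that model, and the difference in the 2 was not tested. In the share the gap was small (48.2 against 51.4%), and the reads are not scaled to library size. Reads of the retained-intron model did not overlap either, by only 177.4 against 178. How often other transcript models separate the groups in this way was not counted, so the lack of overlap does not single out that model. In Zbp1 the models not annotated as protein-coding took 6.28, 9.41 and 6.37% of the TPM after stimulation and 10.9, 8.11 and 5.92% in sham.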

How the data were processed

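RNA of sorted cells from 3 stimulated and 3 sham mice was sequenced as total RNA. Salmon 0.8.2 and edgeR are listed among the tools in the submitters' processing notes, as are Trimmomatic 0.36 and bcl2fastq 2.17.1.14, with GRCm38 as the build. The authors deposited estimated counts per gene and per transcript, and TPM per transcript, which were summed per gene here. The deposited gene counts followed the summed TPM times 1 factor per gene and 1 per library in 100.0% of 14096 genes (tolerance 1%), so they are scaled to length, and 0 rows lacked a gene.

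Here the estimated counts were rounded, filtered (minimum count 10, minimum total 15), scaled by TMM and fitted with the robust quasi-likelihood test of edgeR 4.0.16 in R 4.3.3, with Benjamini-Hochberg adjustment over all 26559 genes at 0.05. The scripts were tested on simulated data. CPM are counts scaled to the TMM library size, and fold changes are stimulated over sham. Coordinates come from GENCODE release 21 for mouse (99.8% of gene IDs matched) and promoters from RefSeq. Counts without molecular identifiers cannot tell duplicate copies from separate molecules. The p-values test the difference between the groups against the spread of 3 libraries a group, with gene variances moderated over all tested genes.

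The 33 genes and all lists were chosen with earlier results of these data known. All 33 could be named, with values by library for the type I and type II leaning genes, for the smallest p and highest TPM of each role group and for any unadjusted p under 0.05. Pathway genes named were the ligands, receptors and up to 4 of each list by p; 1 item that the rule names is not reported here. Alternatives were DESeq2 1.42.0, limma 3.58.1 voom, other size factors, other filters, summed transcript counts, a replicate block, rRNA and mitochondrial genes left out, another threshold and each library left out. Those for pathway genes were chosen after seeing the data.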

Additional observations from a re-analysis of the deposited data

How the results depend on the processing

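Of the 33 genes, 26 kept the sign of their log2 fold change in all 14 alternatives and 7 did not, and 20 of 21 named pathway genes kept theirs. Over all genes, where 0 passed, 3 passed with RLE size factors, 227 with DESeq2 (74 higher and 153 lower), 109 without a filter on low counts, 1 with counts summed from transcripts and 3 at a threshold of 0.1. Leaving out each library gave 0 to 1. DESeq2 called 1 of the 33 genes and 1 pathway gene. The number of the 33 with an unadjusted p under 0.05, 8 in all, ran from 3 (without sham replicate 2) to 14 (without sham replicate 1). It was 4 without any one stimulated library. The share of all tested genes moved too. At that p 2.01% were lower and 1.97% higher without sham replicate 2, and 6.5% and 2.88% without sham replicate 1. Without any one stimulated library 2.41 to 4.67% were lower and 1.52 to 1.91% higher. The number whose groups did not overlap, 7, was 5 without a filter on low counts and 6 with counts summed from transcripts. With 1 library left out it ran from 8 to 20, with 12 without stimulated replicate 2 and 20 without sham replicate 1. Fewer libraries make a lack of overlap easier. The share of all tested genes was not counted under these alternatives, so none of these counts can be read as particular to the 33.

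Psmb8, at -0.00, was 0.01 with RLE size factors, with DESeq2, with a filter of 1 CPM and without mitochondrial and ribosomal RNA genes, 0.05 with limma voom and the replicate block, and 0.03 without a filter, and ran from -0.22 to 0.34 with 1 library left out. Stat2 was 0.02 without a filter and ran from -0.40 to 0.17 over the left-out libraries. Psmb9 was 0.04 from summed transcripts and ran from -0.47 to 0.17. Dhx58 ran from -0.19 to 0.60, Ifit1 from -0.65 to 0.02, Oas1a from -0.49 to 0.07 and Parp14 from -0.39 to 0.02. Ifng was -0.27 from summed transcripts and ran from -0.41 to 0.44. The cause was not tested.

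Same-numbered libraries had correlations of 0.32, -0.16 and 0.13 in their deviations, so the numbers were not taken as pairs. With the replicate block 5 of the 33 genes had an unadjusted p under 0.05, 4 lower and 1 higher. Of all tested genes 4.01% were lower and 2.74% higher at that p. Stimulated replicate 2 correlated best with sham replicate 3 (0.23). The largest standard errors among the 33 genes were those of Cxcl10 (0.51) and Cxcl9 (0.50).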
